A study of Homo sapiens with 6 samples.

Results

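The mucins are large glycoproteins that coat and lubricate epithelial surfaces. The 9 mucin genes described here (MUC1, MUC2, MUC4, MUC5B, MUC12, MUC13, MUC16, MUC17 and MUC20) were picked by gene symbol from 23340 named genes, and each had a row in all 6 deposited tables. A further 10 mucin-named genes had rows and are used only for comparison.

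RNA of 3 human cell lines was sequenced, with 2 libraries per line. MCF10A, a mammary epithelial line that does not form tumours, was grown with 5% horse serum, EGF at 20 ng/ml, hydrocortisone at 500 ng/ml, cholera toxin at 100 ng/ml and insulin at 10 µg/ml. HT-29, a colorectal adenocarcinoma line, was grown with 10% FBS and 5% CO2, and both of its libraries are labelled as treated with IFN-γ at 200 U/ml for 24 hours. MDA-MB-436, a breast carcinoma line, was grown with 10% FBS in L-15 medium without CO2, and no treatment is labelled. No untreated HT-29 library was analysed, so the line, its medium and IFN-γ cannot be told apart. In each line, 1 library is labelled with 25M reads and the other is deeper. Values of a line are given with the 25M library first, and the groups are called HT-29-labelled (with IFN-γ) and MDA-MB-436-labelled. Whether both libraries of a line stem from separate cultures is not stated in the labels. The p-values then reflect only the scatter of these libraries, which may be technical.

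The labels of 2 lines went against their defining genes, and this touches every mucin value below. KRT20, an intestinal keratin, had 29900 and 30880 normalised counts in the MDA-MB-436-labelled libraries, 0 and 0.547 in the HT-29-labelled libraries, and 0 and 1.47 in MCF10A. VIL1, the microvillus protein villin, had 2055 and 2198 in the MDA-MB-436-labelled libraries and no read in the other 4. VIM, the mesenchymal filament vimentin, had 16.5 and 7.39 in the MDA-MB-436-labelled libraries, against 36599 and 35267 in the HT-29-labelled libraries. It was high in MCF10A too, at 25901 and 26246, and did not pass the test between MCF10A and the HT-29-labelled libraries. Of 10 intestinal marker genes, 8 reached 10 normalised counts in the MDA-MB-436-labelled libraries and 0 in the others. The summed level of 9 goblet cell markers was 11852 and 12406 in the MDA-MB-436-labelled libraries, against 6.0 to 12.6 in the other 4. AGR2 alone made up 9284 and 9699 of the former sums. In the same libraries CLCA1 had no read, ZG16 had 0 and 1.85, and ATOH1 and SPINK4 had 12.4 to 14.8. Whether the labels of these lines were exchanged was not tested. Libraries stayed in their labelled groups, and every direction is that of the libraries as labelled. Values are the authors' normalised read counts, that is, reads multiplied by 1 factor per library, and the reads recovered from them summed to 16.7 to 69.5M per library. A gene is said to rise or fall, or to pass the test, at an adjusted p of limma under 0.05 together with a log2 fold change of 1 or more in size.

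Mucins carry long stretches rich in serine and threonine, on which the cell builds dense O-linked sugar chains. The gel-forming mucins, here MUC2 and MUC5B, are secreted, cross-link through disulphide bonds and swell into mucus. The membrane mucins, here the other 7, stay anchored at the apical surface as part of the glycocalyx, and several can be shed or can signal through a cytoplasmic tail. In the colon MUC2 is the main building block of mucus, while MUC12, MUC13 and MUC17 are known from the surface of the enterocyte.

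The promoters of 4 genes are shown because their genes form the contrast on which the values turn. MUC13, MUC2 and MUC17 were high in the MDA-MB-436-labelled libraries and near 0 in the rest, and MUC12 is the neighbour of MUC17 with another pattern. The windows of the other members in the table are described in words. The sequences are the 250 bases before the first base of the gene in RefSeq, read 5′ to 3′ on the gene's strand in the build GRCh38.p14. The RefSeq table held 7 of the 9 mucins, without MUC5B and MUC20. MUC13 lies on the minus strand (chr3:124934752-124935001), and MUC2 (chr11:1074624-1074873), MUC17 (chr7:101019831-101020080) and MUC12 (chr7:100969315-100969564) lie on the plus strand. Capitals mark matches on either strand to motifs known for intestinal and interferon-responsive factors: TTTATN for CDX, GTTAAT for HNF1, CAAAGNNCA for HNF4, GATAA for GATA, TTCNNNGAA for a STAT site and the interferon-stimulated response element.
MUC13: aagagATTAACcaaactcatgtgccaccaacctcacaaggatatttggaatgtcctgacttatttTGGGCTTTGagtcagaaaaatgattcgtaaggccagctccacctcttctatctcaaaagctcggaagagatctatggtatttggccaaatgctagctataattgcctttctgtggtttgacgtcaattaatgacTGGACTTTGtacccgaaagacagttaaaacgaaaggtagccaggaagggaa
MUC2: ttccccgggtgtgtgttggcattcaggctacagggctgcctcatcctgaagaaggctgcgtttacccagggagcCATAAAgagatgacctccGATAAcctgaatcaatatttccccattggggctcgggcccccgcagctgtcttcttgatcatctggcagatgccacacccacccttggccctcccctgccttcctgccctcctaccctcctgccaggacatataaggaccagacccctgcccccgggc
MUC17: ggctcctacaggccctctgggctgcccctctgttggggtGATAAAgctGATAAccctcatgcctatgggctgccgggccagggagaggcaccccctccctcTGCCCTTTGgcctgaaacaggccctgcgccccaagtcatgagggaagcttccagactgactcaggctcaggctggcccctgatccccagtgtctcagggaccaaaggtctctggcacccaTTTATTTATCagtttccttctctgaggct
MUC12: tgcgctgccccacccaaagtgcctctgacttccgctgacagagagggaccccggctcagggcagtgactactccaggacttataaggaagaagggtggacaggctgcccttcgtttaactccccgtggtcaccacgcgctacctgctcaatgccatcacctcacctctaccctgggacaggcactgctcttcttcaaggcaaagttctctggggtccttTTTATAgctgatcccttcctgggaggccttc

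The MUC13 window held an HNF1 match at -245 and HNF4 matches at -185 and -51, counted from the start of the gene. The MUC2 window held a CDX match at -176 and a GATA match at -158. The MUC17 window held CDX matches at -211, -29 and -25, an HNF4 match at -149 and GATA matches at -211, -202 and -24, of which those at -211 and -24 overlap a CDX match. Of the windows not shown, that of MUC4, also high in the MDA-MB-436-labelled libraries, held a STAT site at -11 and no CDX, HNF1, HNF4 or GATA match. MUC16, present in all lines, has 2 starts, and the second held an HNF4 match at -122. The MUC1 windows held a CDX match that is the TATA box. The single MUC12 match, a CDX match at -31, is the same letters as a TATA box, TATAAA on the other strand. Among 35116 RefSeq promoters of this length, 32.6% held the CDX motif, 6.23% the HNF1 motif, 4.44% the HNF4 motif, 20.4% the GATA motif, 3.02% the interferon-stimulated response element and 6.57% the STAT site. The windows of MUC13, MUC2, MUC17 and MUC12 were 41.6%, 59.6%, 60% and 57.6% G and C, and the median of all promoters was 58%. A match describes letters and is not a measured binding site. CDX2 itself had 193.5 and 182 normalised counts in the MDA-MB-436-labelled libraries and none in the other 4, and HNF4A had 1989 and 2037 against 1.5 to 4.42.

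The 9 mucins split the 3 lines by how many were present. All 9 had at least 10 normalised counts in the MDA-MB-436-labelled libraries, in the HT-29-labelled 4 did (MUC1, MUC12, MUC16 and MUC20), and in MCF10A 2 did (MUC1 and MUC16). The summed normalised count of the 9 was 17922 and 18142 in the MDA-MB-436-labelled libraries, 2989 and 2943 in MCF10A and 809 and 787 in the HT-29-labelled libraries. The sums of the 3 lines did not overlap, but 1 gene carried most of each sum. MUC13 made up 12191 and 12473 in the MDA-MB-436-labelled libraries, MUC1 2923 and 2872 in MCF10A, and MUC16 579 and 588 in the HT-29-labelled libraries. MUC2, MUC4, MUC5B, MUC13 and MUC17 reached the filter on low values (10 normalised counts in 2 libraries) only in the MDA-MB-436-labelled libraries. They therefore had to be higher there, and their p-values in comparisons with that line are given for completeness and support nothing. A bulk library cannot tell fewer cells that express a gene from less RNA per cell.

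**Figure D1:**
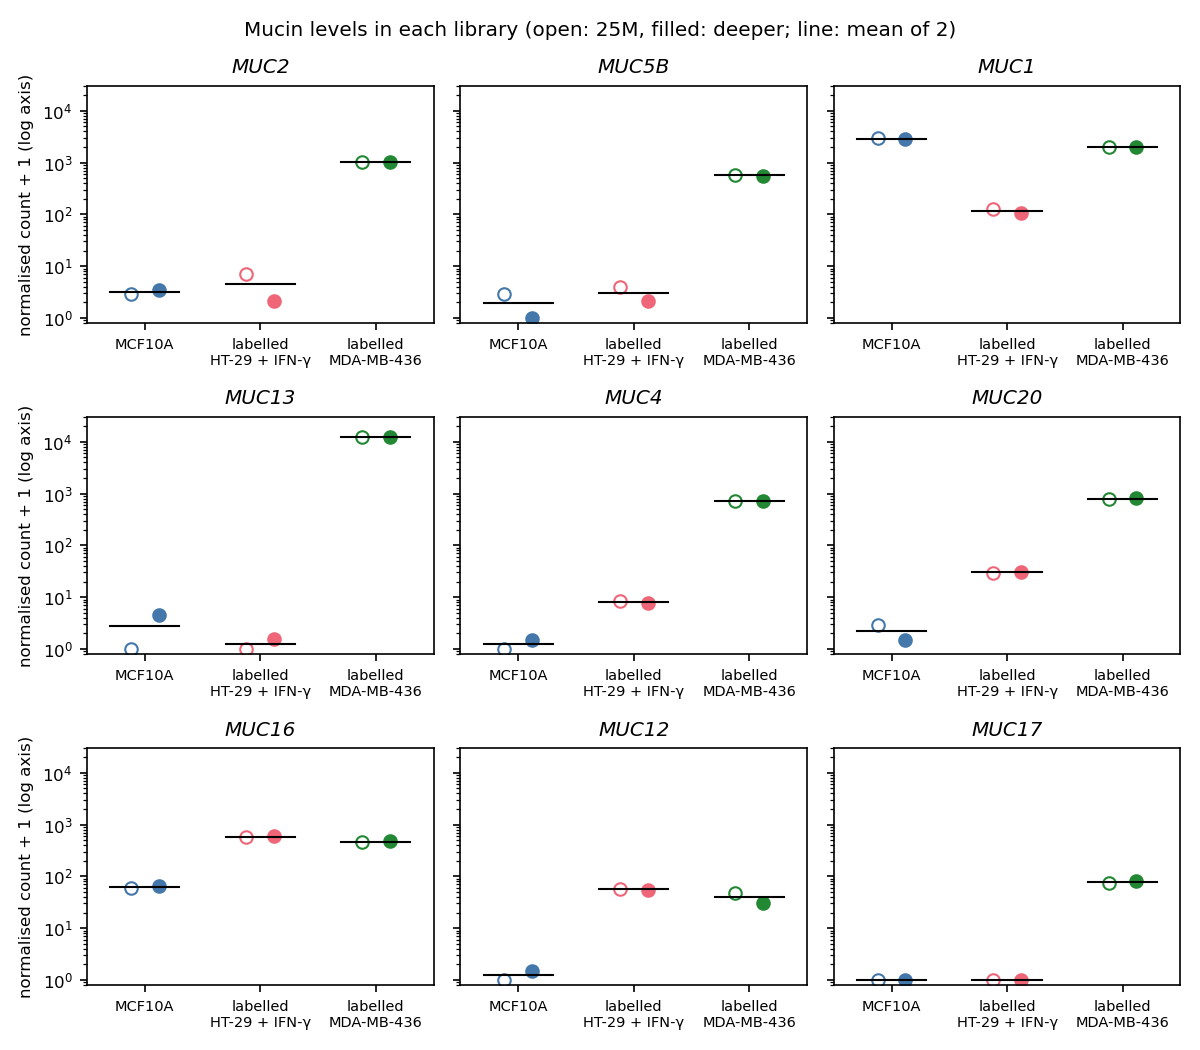
Normalised count + 1 on a log axis for each mucin in each library; open circles are the 25M libraries, filled circles the deeper ones, and the line is the mean of 2. MUC13 stands at 12191 and 12473 in the MDA-MB-436-labelled libraries and at most at 3.44 elsewhere, whereas MUC1 is high in MCF10A too and MUC16 is seen in all 3 lines.

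Of the gel-forming mucins, MUC2, the intestinal mucus polymer, had 1033 and 1035 normalised counts in the MDA-MB-436-labelled libraries. It had 1.87 and 2.45 in MCF10A and 6.0 and 1.09 in the HT-29-labelled libraries, which rest on 1 to 5 reads each. The libraries labelled MDA-MB-436 stood far above the other 4, which overlapped with each other. Pooled reads gave 443.2-fold more MUC2 than in MCF10A (95% counting interval 203.3 to 1209; log2 fold change 8.36, SE 0.517, limma adjusted p = 1.42e-06) and 430.0-fold more than in the HT-29-labelled libraries (interval 197.2 to 1173; log2 difference of HT-29-labelled minus MDA-MB-436-labelled -8.08, limma adjusted p = 1.67e-06). That log2 difference was -8.95 without the 25M and -7.21 without the deeper HT-29-labelled library.

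MUC5B, a gel-forming mucin of the airways and salivary glands, had 583 and 557 normalised counts in the MDA-MB-436-labelled libraries. Elsewhere it had 1.87 and 0 in MCF10A and 3.00 and 1.09 in the HT-29-labelled libraries. At 0 reads the deeper MCF10A library allows up to 1.47 normalised counts. MUC5B thus had the pattern of MUC2 at about the same distance from MCF10A, a log2 fold change of 8.40 (SE 0.539, limma adjusted p = 1.81e-06), or 9.16 without the 25M and 7.63 without the deeper MCF10A library. Neighbours here and below are the nearest genes with a row in the tables, so other genes can lie between. By that measure MUC2 and MUC5B are neighbours on chromosome 11, with 1 gene skipped between them. TOLLIP, an adaptor of innate immune signalling on the far side of MUC5B, ran from 1339 to 2666 across all 6 libraries without passing the test in any comparison. MUC6, the gastric gel-forming mucin on the other side of MUC2, had 14.4 and 12.9 normalised counts in the MDA-MB-436-labelled libraries and 0 to 3.00 in the rest, which is the order of MUC2 and MUC5B at a far lower level. Between MCF10A and the HT-29-labelled libraries neither gel-forming member passed the test (limma adjusted p = 0.625 for MUC2 and 0.213 for MUC5B), and with 1 to 6 pooled reads in each group a difference was not detectable at this depth. Single libraries decided these values: MUC5B passed at 1.53 without the 25M MCF10A library and was 0.01 without the deeper one, and MUC2 passed at 1.15 without the deeper HT-29-labelled library and was -0.59 without the 25M one.

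MUC13 had the highest normalised count of the 9 in the MDA-MB-436-labelled libraries. This membrane mucin, with EGF-like domains outside the cell, had 12191 and 12473 normalised counts in the MDA-MB-436-labelled libraries, which rest on 5922 and 20251 reads. It had 0 and 3.44 in MCF10A and 0 and 0.547 in the HT-29-labelled libraries. The latter pair held 1 read in all, and its range overlapped with that of MCF10A. The pooled fold over MCF10A was 4557 (interval 2211 to 11336; log2 fold change 12.52, SE 0.622, limma adjusted p = 3.72e-07), and the fold over the HT-29-labelled libraries was 30948, with a counting interval of 5554 to 1222430, the bounds being wide because of that single read. The fold over MCF10A rests on few MCF10A reads: without the 25M MCF10A library the log2 fold change was 11.44, and without the deeper one 13.59. The difference between MCF10A and the HT-29-labelled libraries did not pass the test (log2 difference -0.76, limma adjusted p = 0.282), but without the 25M MCF10A library, which has no MUC13 read, the difference was -1.83 and passed (limma adjusted p = 0.00317). Without the deeper MCF10A library it was 0.31. Of its neighbours on chromosome 3, ITGB5, an integrin subunit, was also highest in the MDA-MB-436-labelled libraries, with 7619 and 7688 normalised counts against 3627 and 3658 in MCF10A and 1245 and 1227 in the HT-29-labelled libraries. HEG1, itself a mucin-like membrane receptor, was lowest there, with 111 in both, against 374.5 and 383 in MCF10A and 938 and 943 in the HT-29-labelled libraries.

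MUC4 and MUC20 are neighbours on chromosome 3 and followed the same order of lines. MUC4, a very large membrane mucin that can bind the receptor ERBB2, had 727 and 702 normalised counts in the MDA-MB-436-labelled libraries, 7.50 and 6.57 in the HT-29-labelled libraries, and 0 and 0.491 in MCF10A. MUC20, a small membrane mucin reported to bind the receptor MET, had 788 and 812, then 28.5 and 30.1, then 1.87 and 0.491. For both genes the 3 lines did not overlap, with MCF10A lowest. MUC4 in the HT-29-labelled libraries was 0.984% of its level in the MDA-MB-436-labelled libraries, and MUC20 was 3.66%. For scale, KRT20 and LYZ, which were also highest in the MDA-MB-436-labelled libraries, were at 0.000900% and 0.0144% of that level in the HT-29-labelled libraries.

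Both genes passed the test in all 3 comparisons. MUC4 rose by a log2 fold change of 9.19 in the MDA-MB-436-labelled libraries against MCF10A (SE 0.294, limma adjusted p = 2.83e-08), and by 2.72 in the HT-29-labelled libraries (SE 0.294, adjusted p = 5.05e-05). The latter rests on 17 reads against 1 and has a pooled fold of 17.5 with an interval of 2.75 to 732.3. MUC20 rose by 8.60 (SE 0.318, limma adjusted p = 6.53e-08) and by 3.87 (SE 0.318, adjusted p = 9.20e-06) in the same comparisons. Between the MDA-MB-436-labelled and the HT-29-labelled libraries, the pooled folds were 103.8 for MUC4 (64.6 to 178.7) and 27.2 for MUC20 (21.5 to 34.8). TNK2, the tyrosine kinase gene on the far side of MUC4, had 7827 and 7863, then 977 and 988, then 2818 and 2795 normalised counts in the same order of lines, so its lowest line was another one.

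MUC1 was the only one of the 9 that was highest in MCF10A. MUC1, a widely expressed epithelial membrane mucin with a signalling tail, had 2923 and 2872 normalised counts in MCF10A, 2028 and 1983 in the MDA-MB-436-labelled libraries, and 128 and 105 in the HT-29-labelled libraries. The 3 lines did not overlap, and the last was at 4.01% of MCF10A. The fall in the HT-29-labelled libraries was 26.0-fold against MCF10A (23.0 to 29.4; log2 fold change -4.63, SE 0.0847, limma adjusted p = 2.79e-09) and 17.9-fold against the MDA-MB-436-labelled libraries (15.9 to 20.3; adjusted p = 2.78e-09). Between MCF10A and the MDA-MB-436-labelled libraries the difference was 1.45-fold (1.39 to 1.5), with an adjusted p of 0.000517 by limma, which is under the fold of 2 that a call needed. Of its neighbours on chromosome 1, TRIM46 had 58.5 normalised counts in both HT-29-labelled libraries and 4.93 to 7.49 elsewhere, the reverse of MUC1.

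MUC16, the carrier of the CA125 antigen, was present in every library. It had 59.9 and 63.8 normalised counts in MCF10A, 579 and 588 in the HT-29-labelled libraries, and 451 and 472 in the MDA-MB-436-labelled libraries. MCF10A was lowest and the other lines lay close together without overlap. MUC16 rose 9.30-fold over MCF10A in the HT-29-labelled libraries (7.90 to 11; log2 fold change 3.22, SE 0.0848, limma adjusted p = 1.46e-08) and 7.41-fold in the MDA-MB-436-labelled libraries (6.27 to 8.81; 2.88, SE 0.0848, adjusted p = 1.81e-08). The 1.25-fold difference between these lines (1.16 to 1.36; limma adjusted p = 0.00586) fell short of the fold minimum. MSLN, the surface protein mesothelin that binds MUC16, had 5884 and 5793 normalised counts in MCF10A, 996 and 1048 in the HT-29-labelled libraries and 169 in both MDA-MB-436-labelled libraries, so the lowest line for MUC16 was the highest for its partner. MBD3L1 and OR1M1, the neighbours of MUC16 on chromosome 19, had 0 reads in all 6 libraries.

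MUC12 and MUC17 are neighbours on chromosome 7, with 1 gene skipped between them, and differed in the HT-29-labelled libraries. MUC12 had 57.0 and 54.2 normalised counts there, 47.3 and 28.9 in the MDA-MB-436-labelled libraries, and 0 and 0.491 in MCF10A. MUC17, which covers enterocyte microvilli, had no read in MCF10A or in the HT-29-labelled libraries, and 74.1 and 79.5 normalised counts in the MDA-MB-436-labelled libraries. With 0 reads, MUC17 could be as high as 4.5 in the 25M and 1.64 in the deeper HT-29-labelled library, well under the MUC12 values of the same libraries.

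MUC12 rose over MCF10A by a log2 fold change of 5.53 in the HT-29-labelled libraries (SE 0.359, limma adjusted p = 2.19e-06) and of 4.96 in the MDA-MB-436-labelled libraries (SE 0.359, adjusted p = 3.80e-06). The difference between these lines did not pass the test (1.66-fold, 1.23 to 2.24 by counting, limma adjusted p = 0.167). The MUC12 libraries labelled MDA-MB-436 spread widely (SD 13.0 on a mean of 38.1), and edgeR's quasi-likelihood test, which models the reads, put the same difference at an adjusted p of 0.00275 with a log2 fold change of 0.69, below the fold minimum. MUC17 was at least 67.0-fold higher in the MDA-MB-436-labelled libraries than in MCF10A and at least 65.0-fold higher than in the HT-29-labelled libraries, with 3 reads over the group as the floor (limma adjusted p = 8.95e-07 and 8.48e-07). ACHE, on the far side of MUC12, had 123 and 104.5 normalised counts in the HT-29-labelled libraries and 2.95 to 24.6 elsewhere. TRIM56, on the far side of MUC17, had 869 and 896 in MCF10A, 2739 and 2589 in the HT-29-labelled libraries and 6124 and 6173 in the MDA-MB-436-labelled libraries.

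**Figure D2:**
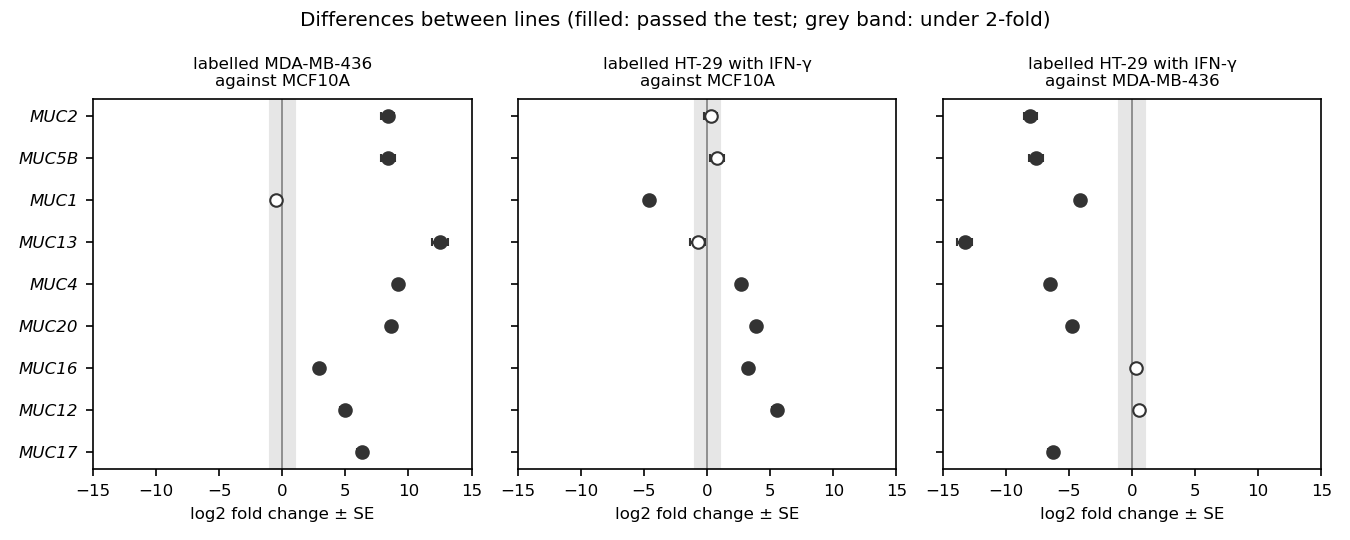
Log2 fold change of each mucin in the 3 comparisons, with the SE of the fit as bars; filled points passed the test and the grey band spans changes under 2-fold. MUC17 is not drawn where both lines are at 0. MUC1 lies at -0.53, -4.63 and -4.10 from left to right, and MUC13 at 12.52, -0.76 and -13.28.

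Counted over the 9 genes, 8 rose, 0 fell and MUC1 did not pass in the MDA-MB-436-labelled libraries against MCF10A, where 49.2% of 15638 genes tested passed in either direction (25.6% higher, 23.7% lower). The median log2 fold change of the mucins was 8.36 and that of all genes 0. In the HT-29-labelled libraries against MCF10A, 4 rose (MUC4, MUC12, MUC16 and MUC20), MUC1 fell and 4 did not pass, where 46.5% of genes passed (28.4% higher, 18.1% lower). The mucins passed in 55.6%, near the share of all genes, and their median was 0.77 against 0.13 for all genes. In the HT-29-labelled libraries against the MDA-MB-436-labelled libraries, 7 fell, 0 rose, and MUC12 and MUC16 did not pass, where 53.4% of genes passed (29.9% higher, 23.5% lower). The mucin median was -6.28, or -6.02 with MUC17 at its bound, against 0.09 for all genes. As 5 of the 9 could be tested only because they are high in the MDA-MB-436-labelled libraries, the counts describe the mucins without being evidence about them. The comparisons share libraries and are not independent of each other.

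Compared per length, the make-up of the mucin RNA differed between the lines. Lengths were those implied by the authors' RPKM values, from 1.08 kb for MUC1 to 43.7 kb for MUC16. In MCF10A the normalised count per kilobase was 2672 ± 33.2 (SD, n = 2) for MUC1 and 1.41 ± 0.0631 for MUC16. The other 7 had means at or below 0.600 that rest on few reads, and they are not ordered here. In the HT-29-labelled libraries the order was MUC1 at 107 ± 14.6, MUC16 at 13.3 ± 0.148, MUC20 at 4.64 ± 0.178, MUC12 at 3.41 ± 0.123 and MUC4 at 1.73 ± 0.162, each step larger than the spread of its libraries. The last 4, MUC2, MUC5B, MUC13 and MUC17, were at or below 0.414 and are not ordered by these data.

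MUC13 came first in the MDA-MB-436-labelled libraries at 4306 ± 69.5 normalised counts per kilobase, then MUC1 at 1849 ± 29.4. MUC4 followed at 175 ± 4.27, MUC20 at 127 ± 2.68, MUC2 at 121 ± 0.106, MUC5B at 31.9 ± 1.02, MUC16 at 10.5 ± 0.339, MUC17 at 5.36 ± 0.263 and MUC12 at 2.34 ± 0.798. No neighbours in this order overlapped between their libraries. The order depends on the lengths: with the longest coding transcript of GENCODE v29 (4170 bases for MUC1, 17110 for MUC4 and 2842 for MUC20) the means were 481 for MUC1, 41.8 for MUC4 and 282 for MUC20, which puts MUC20 above MUC4. MUC13 stayed first at 4283. The only coding transcript listed there for MUC2 has 393 bases, a small fraction of the 8.57 kb from RPKM. With it MUC2 would come second at 2631, a rank that rests on this short entry alone. As shares of the per-kilobase sum, MUC1 made up 99.9% in both MCF10A libraries, 83.1% and 80.5% in the HT-29-labelled libraries, and 28.3% and 27.5% in the MDA-MB-436-labelled libraries. MUC13 made up 64.5% and 65.4% of the last, and MUC16 made up 9.36% and 11.2% in the HT-29-labelled libraries. These shares depend on the lengths too. With the GENCODE lengths MUC1 made up 41.8% and 45.1% in the HT-29-labelled libraries and 6.30% and 6.08% in the MDA-MB-436-labelled ones, and MUC16 made up 18.1% and 24.0% in the former. MUC2 then made up 34.1% and 33.7%, and MUC13 54.8% and 55.4%, in the MDA-MB-436-labelled libraries. These GENCODE shares all rest in part on the 393-base entry of MUC2. With the RPKM length kept for MUC2 alone, MUC2 made up 2.31% and 2.28% and MUC13 81.2% and 81.7% in the MDA-MB-436-labelled libraries. MUC1 then made up 52.2% and 47.4% in the HT-29-labelled libraries. In MCF10A MUC1 made up 99.0% and 98.7% with the GENCODE lengths.

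**Figure D3:**
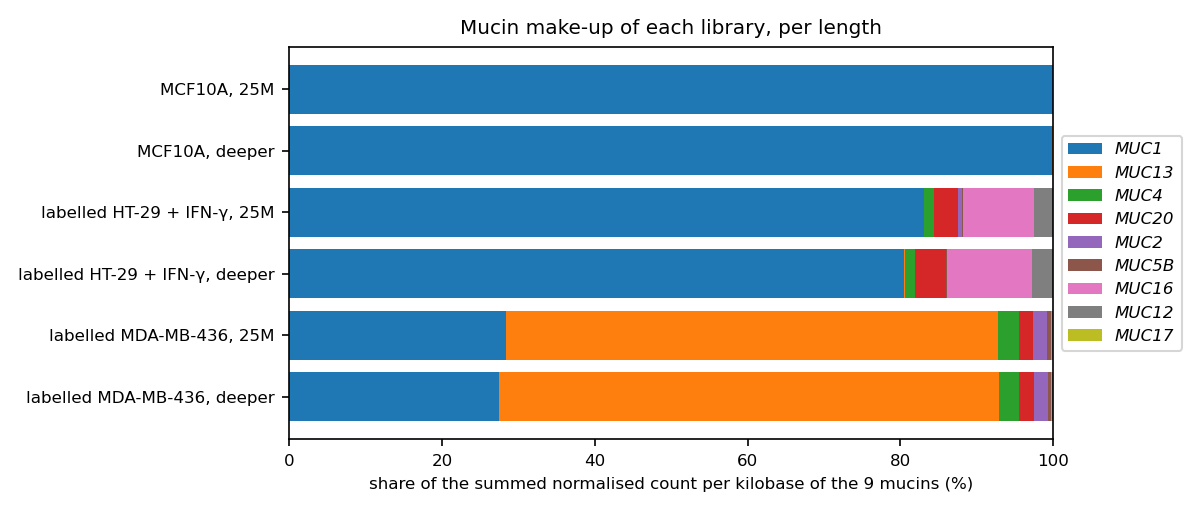
Share of each mucin in the summed normalised count per kilobase of the 9 genes, in percent, with 1 bar per library. MUC1 fills 99.9% of both MCF10A bars, and MUC13 fills 64.5% and 65.4% of the bars labelled MDA-MB-436.

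Some mucin reads may belong to overlapping genes. The strand setting of the counting is not given in the sources used here. GENCODE v29 places MUC5B-AS1 antisense to MUC5B over 7416 bases and MUC20-OT1 over 19083 bases of MUC20 on the same strand. It also places AL713999.1 over 1449 bases of MUC1 on the same strand and AC105446.1 antisense to MUC12 over 3289 bases. None of these has a row in the tables, so reads of these pairs cannot be told apart. Repeats inside mucin genes, and near-identical family members such as MUC3A and MUC20P1, which have no row, make the counts of MUC4, MUC12, MUC17 and MUC20 uncertain in the same way.

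The genes that build and carry mucins were read from 6 lists. Of 18 genes for folding, secretion and the mucus layer, 13 were tested and 10 rose while 1 fell in the MDA-MB-436-labelled libraries against MCF10A, with a median log2 fold change of 6.86, where 25.6% of all genes rose and 23.7% fell. Of the 13, 8 reached the filter only in the MDA-MB-436-labelled libraries and had to be higher there, so the count is a description. AGR2, the disulphide isomerase needed to assemble MUC2, had 9284 and 9699 normalised counts there and 7.49 and 6.87 in MCF10A. CFTR, the anion channel that lets mucus unfold, had 1143 and 1180, and ATP2C2, a Golgi calcium pump, averaged 5755 ± 31.0 against 18 ± 1.09 (SD, n = 2). TFF3, the trefoil peptide packed with MUC2, rose by 8.57 on the log2 scale. In the HT-29-labelled libraries against MCF10A the same list had 3 higher and 4 lower (53.8% of 13, against 46.5% of all genes), and AGR2 had 0 and 1.09 normalised counts. So the lines with traces of MUC2 and MUC5B had traces of AGR2 as well, as values side by side and with no test of a relation.

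Of 26 regulators of mucin genes, 25 were tested. In the MDA-MB-436-labelled libraries against MCF10A, 20 rose and GFI1, a zinc finger repressor, fell (median log2 fold change 3.69, or 3.6 with genes at 0 at their bound). That is 84.0% of 25, against 49.2% of all genes. Of the 25, however, 6 reached the filter only through the MDA-MB-436-labelled libraries and 3 only through the HT-29-labelled ones. FOXA3, a forkhead factor of endoderm, averaged 1654 ± 129 there and 0.245 ± 0.347 in MCF10A (SD, n = 2), and SPDEF, a goblet cell factor, rose by 9.30. In the HT-29-labelled libraries against MCF10A, 11 rose and 2 fell, 52.0% and near the 46.5% of all genes, and against the MDA-MB-436-labelled libraries 3 rose (GATA4, GATA5 and SOX2) and 16 fell, 76.0% against 53.4%.

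The enzymes of O-glycosylation moved in both directions. Of 13 tested genes that start the chains, 5 rose and 5 fell in the MDA-MB-436-labelled libraries against MCF10A, 76.9% against 49.2% of all genes. Of the 13, 2 reached the filter only through the MDA-MB-436-labelled libraries and 1, GALNT13, only through the HT-29-labelled ones. In the HT-29-labelled libraries against MCF10A 3 rose and 4 fell, 53.8% and near the 46.5% of all genes. GALNT3 had 2011 and 2104 normalised counts in MCF10A, 4667 and 4515 in the MDA-MB-436-labelled libraries, and 1.5 and 4.38 in the HT-29-labelled libraries. GALNT13, of the same enzyme family, was the reverse, with 220.5 and 258 in the HT-29-labelled libraries and at most 6.18 elsewhere. The HT-29-labelled libraries were thus lowest of the 6 for one initiating enzyme and highest for another.

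Of 23 tested genes that extend and cap the chains, 11 rose and 5 fell in the MDA-MB-436-labelled libraries against MCF10A (69.6%, against 49.2% of all genes), and 5 rose and 7 fell in the HT-29-labelled libraries (52.2%, against 46.5%). Of the 23, 1 (B3GNT6) reached the filter only through the MDA-MB-436-labelled libraries and 1 only through the HT-29-labelled ones. C1GALT1, which adds galactose to the first sugar, had 1187 and 1197 normalised counts in MCF10A, 3647 and 3813 in the HT-29-labelled libraries and 2514 and 2391 in the MDA-MB-436-labelled libraries. GCNT3, the branching enzyme of mucin-type chains, had 19843 and 20112 in the MDA-MB-436-labelled libraries, 26.2 and 23.6 in MCF10A, and 55.5 and 39.9 in the HT-29-labelled libraries. B3GNT6, which starts a chain core typical of colon, had 30.9 and 33.3 in the MDA-MB-436-labelled libraries and at most 1.5 elsewhere. ST6GALNAC1, the sialyl-Tn synthase, had 158.5 and 167.5 there, 13.1 and 18.2 in MCF10A and no read in the HT-29-labelled libraries. The general enzyme C1GALT1 was thus between 1187 and 3813 in every library, yet it rose over MCF10A in both comparisons. Its log2 fold change was 1.64 in the HT-29-labelled libraries, where it was highest, and 1.04 in the MDA-MB-436-labelled libraries. GCNT3 and B3GNT6 were highest in the MDA-MB-436-labelled libraries.

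Partners and sheddases of the membrane mucins passed at shares near those of all genes in both comparisons with MCF10A (57.1% against 49.2%, and 52.4% against 46.5%). Of 21 tested, 9 rose and 3 fell in the MDA-MB-436-labelled libraries against MCF10A, 3 rose and 8 fell in the HT-29-labelled libraries against MCF10A, and 2 rose and 13 fell in the latter against the MDA-MB-436-labelled libraries (71.4%, against 53.4% of all genes). Of the 21, 1 reached the filter only through the MDA-MB-436-labelled libraries. ERBB2, the partner of MUC4, averaged 2306 ± 44.4 normalised counts in MCF10A, 1121 ± 1.18 in the HT-29-labelled libraries and 4419 ± 68.4 in the MDA-MB-436-labelled libraries (SD, n = 2). EGFR, a partner of MUC1, averaged 9150 ± 148, 2287 ± 37.7 and 4800 ± 168 in the same order. LGALS3, a galectin that binds mucin sugars, ran from 3291 to 6341 over the 6 libraries and passed the call in no comparison. Other members differed far more. The galectin LGALS4, the 1 gene above that had to be higher there, had 31569 and 33856 in the MDA-MB-436-labelled libraries and at most 4.38 elsewhere. LGALS1 had 88.5 and 61.0 there, 31386 and 31071 in MCF10A and 22065 and 20247 in the HT-29-labelled libraries. ERBB3 had 10341 and 10208, 290 and 344, and 40.5 and 34.5 in the same order. ADAM17, a sheddase of MUC1, rose by 1.12 on the log2 scale in the HT-29-labelled libraries against MCF10A (limma adjusted p = 2.27e-07). Among the other mucin-named genes, 10 of 16 had a row and 5 were tested. CD164, the sialomucin endolyn, and MUC6 rose in the MDA-MB-436-labelled libraries against MCF10A, and the other 3 did not pass. That is 40% of 5, against 49.2% of all genes. MUC6 reached the filter only through the MDA-MB-436-labelled libraries and had to be higher there. MUC21, a membrane mucin of squamous epithelia, had 37.5 and 34.4 normalised counts in MCF10A and 0 and 1.09 in the HT-29-labelled libraries.

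**Figure D4:**
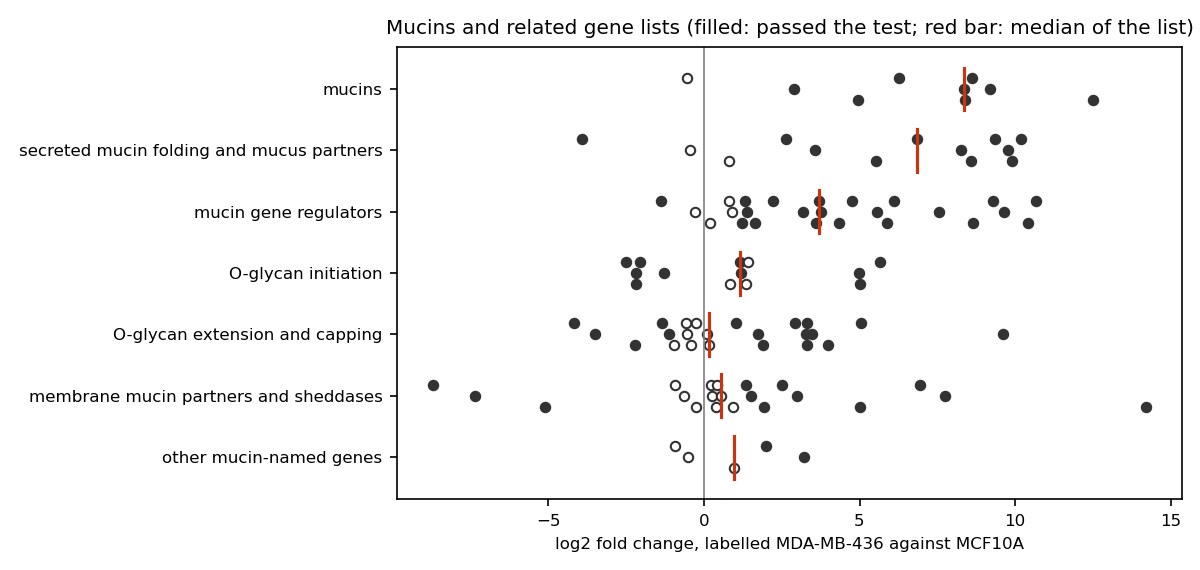
Log2 fold change of each tested gene in the MDA-MB-436-labelled libraries against MCF10A, by list; filled points passed the test and the red bar is the list's median. The mucins have a median of 8.36, the mucus folding partners 6.86 and the regulators 3.69, while the chain-extending enzymes have 0.17 and the membrane partners 0.56.

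For each mucin, the genes most like it across the 3 lines were found by the distance between centred line means on the log2 scale, among 15627 genes. With only 3 lines many genes come close, so the names are a description. MUC1 was closest to YWHAZ (0.118) and ANKRD65 (0.119), MUC16 to TEC (0.0126) and TIGD3 (0.0151), and MUC12 to GLI2 (0.226) and KBTBD11 (0.235). Of the gel-forming mucins, MUC2 was closest to O3FAR1 (0.175) and HOXB9 (0.185), and MUC5B to C9orf152 (0.101) and HLA-DQA2 (0.193). MUC4 was closest to TGM2 (0.132) and C2 (0.203), MUC20 to SIDT1 (0.0965) and LOC100131096 (0.127), and MUC17 to LOC254099 (0.0208) and CCDC48 (0.0332). MUC13 was closest to TRIM31 at 0.213, and its next gene, SLC44A4, was at 0.792.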

How the data were processed

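Each of the 6 deposited tables lists genes by symbol with normalised counts and RPKM, per the file headers. The submitters' processing notes name FastQC, STAR 2.2.0, HTSeq and hg19, with no settings. The authors' normalised counts are a signal in which each library has its own step: 100% of its nonzero values were whole multiples of that step (tolerance 0.001), which gave back whole reads. In 15.2% of rows the deposited RPKM was displaced against the symbols, though in 0 of the 9 mucin rows, and served for gene length only. In the tables, 28 symbols that read as dates were left out.

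Mucins and gene lists were chosen with earlier results of these data known. Tests used limma 3.58.1 (R 4.3.3), trend and robust settings on, over log2 of the normalised count plus a pseudocount of 1. Genes needed 10 normalised counts in 2 or more libraries, and 1 fit held all 6 libraries (15638 genes, 3 residual degrees of freedom). A gene passed with a Benjamini-Hochberg adjusted p under 0.05 if its log2 fold change was also 1 or more in size. Fold changes on the log2(value + 1) scale understate low genes. Folds are ratios of reads pooled over a line, with exact 95% counting intervals. A group at 0 reads was set to 3 reads over the group, and a library at 0 allows up to 3 reads. These intervals and limits cover counting error only. Related genes named are a fixed panel, the neighbours of each mucin, the 2 genes nearest each mucin in pattern and, from each list, up to 3 with the largest change between the HT-29-labelled libraries and MDA-MB-436. SPDEF, TFF3 and CD164 were named after their values were seen, and a gene that the rule names is not reported here. Alternatives were other pseudocounts, filters and scalings, edgeR 4.0.16 and DESeq2 1.42.0 on the recovered reads, thinning, a fold-threshold test, a block by depth, summed MCF10A libraries, fits of 2 lines and leaving out each library. A test on simulated counts of 14035 genes was read by size of change only, not by expression level. Recovery of mucins near 0 in a line was not tested. Each comparison recovered 67 of 67 genes with a 3-fold change and 66 of 66 with an 8-fold change. At 1.5-fold, under the fold minimum, 1, 0 and 0 of 67 were recovered, and false calls numbered 0, 0 and 3, in the order MDA-MB-436 against MCF10A, HT-29 against MCF10A and HT-29 against MDA-MB-436.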

Additional observations from a re-analysis of the deposited data

How the results depend on the processing

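Over 27 mucin differences and 507 refits, no call reversed, no call was lost among mucins still tested and 5 were gained. For the 5 mucins that reached the filter only in the MDA-MB-436-labelled libraries, the direction against that line was fixed beforehand. Their steady calls there support nothing. MUC17 had no read in either line of the HT-29-labelled against MCF10A comparison, so it could not be called there. The gains lie among mucins with few reads in both lines compared, in the HT-29-labelled libraries against MCF10A. There MUC13 became a second lower gene, making the count 2, with edgeR (log2 fold change -2.56, adjusted p = 0.0293), with the MCF10A libraries summed (-1.58, limma adjusted p = 0.00568) and without the 25M MCF10A library. Without that library MUC5B was higher (1.53, limma adjusted p = 0.0263), and without the deeper HT-29-labelled library so was MUC2 (1.15, limma adjusted p = 0.00878). In the same comparison the uncalled values of MUC13 and MUC2 changed sign without the deeper MCF10A library (0.31) and without the 25M HT-29-labelled library (-0.59). Differences of mucins near 0 in a line depend on the pseudocount: MUC17 in MDA-MB-436 against MCF10A was 7.27 at 0.5, 6.28 at 1 and 4.03 at 5. Leaving out each library in turn gave 4 to 5 mucins higher and 1 to 2 lower in this comparison, 8 higher and 0 lower for MDA-MB-436 against MCF10A, and 0 higher and 7 lower for HT-29 against MDA-MB-436. MUC12 and MUC17 were not tested under the filter of 10 CPM. The mucins called under it were 6 higher for MDA-MB-436 against MCF10A and 3 higher and 1 lower for HT-29 against MCF10A. For HT-29 against MDA-MB-436 it gave 6 lower.

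Over all genes, the filter of 10 CPM left fewer genes and gave 2424 higher for MDA-MB-436 against MCF10A (3999 with the filter of 10 normalised counts), 2209 for HT-29 against MCF10A (4442) and 2670 for HT-29 against MDA-MB-436 (4675). Leaving out 1 library gave 3919 to 3996 higher and 3647 to 3723 lower, 4261 to 4441 and 2729 to 2817, and 4554 to 4674 and 3581 to 3679. Scaling by library size moved the median of all genes by 0.30 for HT-29 against MCF10A, where 5376 rose and 1994 fell in place of 4442 and 2823, and by 0.32 for HT-29 against MDA-MB-436, where 5617 rose and 2822 fell in place of 4675 and 3675. TMM moved the former by -0.13. The mucin counts were those given above under both scalings. With the replicate block by depth, 4451 rose and 2820 fell for HT-29 against MCF10A and the mucin counts were 4 and 1. The numbers do not pair the libraries: the correlations of their deviations were -0.00282, 0.00731 and 0.0276.

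Depth limits the near-absent mucins: a library with 0 reads allows up to 5.62 normalised counts in the 25M MCF10A library and 4.5 in the 25M HT-29-labelled library.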
